A study of Mus musculus with 2 samples.

Results

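The alpha-globin cluster of the mouse lies on chromosome 11 beside Nprl3, and Gata1 binding was examined here from its flanking genes to its last globin gene. The region was set by 9 genes: the alpha-type globin genes Hba-x, Hba-a1, Hba-a2, Hbq1a and Hbq1b and the flanking genes Nprl3, Mpg, Rhbdf1 and Snrnp25. It ran from 100 kb below the lowest to 100 kb above the highest coordinate of these genes, chr11:32105415-32400873 in mm10, a length of 295 kb. Of the 4135 Gata1 peaks in the whole list, 6 had their midpoint in this region. All 9 genes were found in the RefSeq table of GRCm38.p6, the same assembly as mm10. The choice used gene names and positions and no measured strength of binding, but it was made with earlier results of these data known.

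Binding was mapped by chromatin immunoprecipitation with sequencing (ChIP-seq) in mouse embryonic stem cells that had been differentiated for 5 days as embryoid bodies and sorted for a Runx1-ires-GFP reporter and Gata1-mCherry. The series text calls these cells primitive erythroid, the first red cells of the embryo. The data comprised 1 library made with a rabbit antibody to Gata1 and 1 control library, titled input chromatin, from cells of the same description. Both groups carried the same reporters, and both were made from cells combined over more than 1 sort, per the labels' protocols. There was no replicate, each peak was reported only as called, with no height or depth, and the control has no file analysed here. The cell type could not be checked against its marker genes, because binding and not expression was measured.

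Haemoglobin needs equal supplies of alpha-type and beta-type chains, and the alpha-type genes are switched during development from Hba-x, encoding the embryonic zeta chain, to Hba-a1 and Hba-a2, encoding the adult alpha chain. In red cells their transcription depends on a group of upstream enhancers, most of them inside the introns of Nprl3, a gene whose own product belongs to the GATOR complex that restrains growth signalling through mTORC1. The mouse enhancers are named by their rounded distance in kilobases upstream of the zeta-globin gene: HS-31, HS-26, HS-21, HS-12 and HS-8. HS-26 is also called R2, and it is the counterpart of the main human alpha-globin enhancer. RefSeq lists HS-26 among the other names of Nprl3 itself. Gata1 is known to bind most of these elements in definitive red cells together with Tal1 and Klf1.

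Part of the sequence was at hand for 2 of the 6 peaks, since they cover an annotated gene start whose promoter is in the RefSeq table (GRCm38.p6). These were the peak at Hba-x and the peak at Il9r, the interleukin 9 receptor gene, which lies beside Snrnp25. The promoter windows of 300 bases covered 274 of the 400 bp of the Hba-x peak and 270 of the Il9r peak. The rest of both peaks was not seen. These 2 promoters are shown because they hold sequence under called binding. Hba-a1 is shown with them because the adult gene has a GATA match in its promoter and no called peak there. Each line holds the 250 bases before the start, 5′ to 3′ along the gene's own strand. Capitals mark GATA matches, defined as AGATAA, as AGATAG, as TGATAA or as TGATAG on either strand, so that CTATCT and TTATCT are matches read on the opposite strand. The 3 intervals are chr11:32276350-32276599 (plus strand, Hba-x), chr11:32283422-32283671 (plus strand, Hba-a1) and chr11:32200280-32200529 (minus strand, Il9r).
Hba-x: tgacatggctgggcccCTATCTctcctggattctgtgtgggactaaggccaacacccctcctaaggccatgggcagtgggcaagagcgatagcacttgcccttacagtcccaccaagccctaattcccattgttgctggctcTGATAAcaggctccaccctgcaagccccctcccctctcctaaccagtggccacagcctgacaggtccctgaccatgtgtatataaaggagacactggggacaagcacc
Hba-a1: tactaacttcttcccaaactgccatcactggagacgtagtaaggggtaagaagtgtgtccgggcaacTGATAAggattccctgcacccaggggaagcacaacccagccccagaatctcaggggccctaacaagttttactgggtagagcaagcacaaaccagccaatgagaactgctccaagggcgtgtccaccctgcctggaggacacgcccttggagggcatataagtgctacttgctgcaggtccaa
Il9r: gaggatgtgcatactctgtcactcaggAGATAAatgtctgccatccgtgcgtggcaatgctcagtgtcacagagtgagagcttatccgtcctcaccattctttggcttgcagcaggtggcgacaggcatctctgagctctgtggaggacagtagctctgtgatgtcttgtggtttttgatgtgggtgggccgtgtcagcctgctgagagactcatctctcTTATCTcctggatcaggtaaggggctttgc

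The 6 peaks formed 1 lone site at Il9r and a group of 5 that ran from the middle of Nprl3 to the Hba-x promoter. Every peak lay on the upstream side of Hba-x, and 0 lay between the Hba-x start and the upper end of the region. The lowest peak, chr11:32200100-32200499, was inside Il9r, 76.3 kb upstream of the Hba-x start. It covers the Il9r start of the promoter table, and the gene table extends Il9r beyond that start. The next were chr11:32245636-32246035, chr11:32250798-32251197 and chr11:32265119-32265518, all 3 inside Nprl3, at 30.8, 25.6 and 11.3 kb upstream of Hba-x. The peak after these, chr11:32268927-32269326, lay outside any annotated coding gene, between Nprl3 and Hba-x, at 7.47 kb. The last, chr11:32276224-32276623, spanned the Hba-x start, with its midpoint 0.177 kb upstream. Neighbouring midpoints within the group of 5 were 5.16, 14.3, 3.81 and 7.30 kb apart, and the group was 45.5 kb from the Il9r peak.

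**Figure D1:**
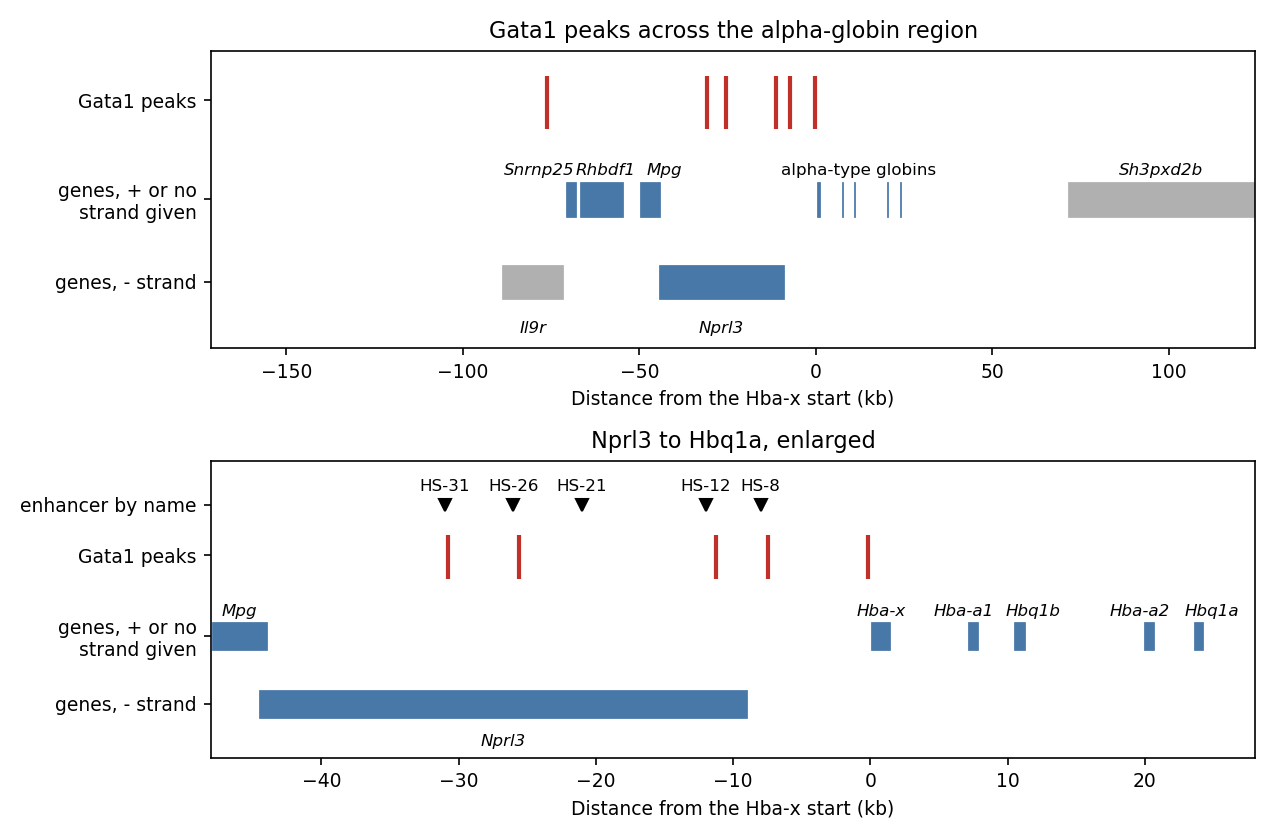
Gata1 peaks (red bars, at peak midpoints) and protein-coding genes (blue, the 9 genes that set the region; grey, other genes) by distance in kb from the Hba-x start. The upper panel shows the whole region and the lower panel the stretch from Nprl3 to Hbq1a with the enhancers placed at the distance in their names (black triangles). The 5 upper peaks lie between 30.8 and 0.177 kb upstream of Hba-x, and none lies among the adult genes.

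Set against the enhancers by name, 4 of 5 had a Gata1 peak within 1 kb of their nominal place. The peak at 30.8 kb was 0.235 kb from the nominal place of HS-31, and the peak at 25.6 kb was 0.397 kb from that of HS-26. The peak at 11.3 kb was 0.718 kb from the nominal place of HS-12, an element described in the mouse, and the peak at 7.47 kb was 0.526 kb from that of HS-8. All 4 peaks lay on the Hba-x side of the nominal place, and the reason for this shared direction was not tested. HS-21 was the exception, with its nearest peak 4.60 kb from the nominal place, the one already at HS-26. Over all autosomes, 0.336% of positions taken every 1 kb were within 1 kb of a peak midpoint. Within the 31 kb below the Hba-x start, where the peaks are dense, the share was 27.2%. The nominal distances are rounded, so a peak within 1 kb is placed beside the named element and not shown to be the same bases, and with a limit of 0.5 kb only HS-31 and HS-26 had a peak. A missing peak at HS-21 means that none was called, at a depth and threshold not given in the sources used here.

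Nprl3 carried more of these peaks than any of the other genes that set the region. It spans chr11:32231963-32267707 (35.7 kb) on the minus strand, so that its start faces Hba-x. Its 3 internal peaks lay 2.39, 16.7 and 21.9 kb from its start, at 6.68%, 46.7% and 61.2% of its length. The last 13.9 kb of the gene, towards Mpg, held no peak. Another peak lay 1.42 kb upstream of its start, and the one at Hba-x was also within 10 kb. At least 3 peaks inside the gene were found for 0.335% of all 21792 protein-coding genes, and for 0.126% of the 7162 genes between 0.5 and 2 times the length of Nprl3. At least 5 peaks within 10 kb were found for 0.0642% of protein-coding genes, 14 in all. The Nprl3 promoter itself, in the 250 bases before the start, had no peak and no GATA match.

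Hba-x, the embryonic gene (chr11:32276600-32278116, plus strand), was the only one of the 5 alpha-type globin genes with a peak at its promoter. The peak covered all 250 bases before the start and 24 bases from the start onwards. Of the 8 genes of the set with a promoter in the RefSeq table, Hba-x was also the only one with a peak midpoint in the window from 250 bases before to 50 after the start. Rhbdf1 had no entry there. The same was found for 1.43% of 17492 protein-coding genes with such a window. The second peak within 10 kb of Hba-x was the one 7.47 kb upstream, beside HS-8.

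The adult and theta-type genes had no peak of their own. Hba-a1 (chr11:32283672-32284486) lay 7.25 kb from the Hba-x peak, which was its nearest. Hbq1b (chr11:32286964-32287912), a theta-type globin gene, lay 10.5 kb from that same peak. Hba-a2 (chr11:32296492-32297310) and Hbq1a (chr11:32300069-32300873) lay 20.1 and 23.6 kb from it. All 4 are on the plus strand, so that every distance is upstream. The peak beside HS-26 was 25.6 kb upstream of Hba-x, 32.7 kb upstream of Hba-a1 and 45.5 kb upstream of Hba-a2. The order of the genes by distance from each of the 6 peaks was therefore the same, with the embryonic gene nearest and Hbq1a farthest.

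The duplicated genes limit what the missing peaks show. The promoter windows of Hba-a1 and Hba-a2 were identical over 297 of 297 bases when shifted by 3, and those of Hbq1b and Hbq1a shared 286 of 300 bases (95.3%). A read that falls within the stretch shared by Hba-a1 and Hba-a2 has equal places at both genes, and so has a read between the bases at which Hbq1b and Hbq1a differ. The authors' treatment of such reads is not given in the sources used here, and its part in the lack of a peak at the adult genes was not tested.

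The flanking genes beyond Nprl3 had at most the Il9r peak nearby. Snrnp25 (chr11:32205415-32208996), encoding a protein of the minor spliceosome, had its start 5.12 kb from that peak. Rhbdf1 (chr11:32209585-32222331), encoding the inactive rhomboid protein iRhom1, was 9.29 kb from it. Mpg (chr11:32226505-32232702), encoding a DNA glycosylase of base excision repair, was farther off, 13.1 kb from its nearest peak, which was inside Nprl3. Mpg and Nprl3 overlap by 740 bp at their ends, on opposite strands. Of the other coding genes in the region, Il9r (chr11:32187544-32205283) held 1 peak, and Sh3pxd2b, encoding a podosome adaptor, was 71.3 kb from the nearest peak.

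With a margin of 10 kb added to both ends of each gene, 5 of the 9 genes held a peak midpoint: Nprl3 with 5, Hba-x with 2, and Hba-a1, Rhbdf1 and Snrnp25 with 1 each. Under that window 16.6% of all protein-coding genes had a peak. The 9 genes lie side by side and share peaks, so they are not 9 separate observations. Inside the gene only Nprl3 had a peak (9.34% of all protein-coding genes), and within 1 kb only Nprl3 and Hba-x did (11.3%). Within 50 kb all 9 had one (32%), from 3 peaks for Snrnp25 to 6 for Mpg and Nprl3. Where each peak was given to its nearest gene alone, 4 went to Nprl3, 1 to Hba-x and 1 to Il9r.

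**Figure D2:**
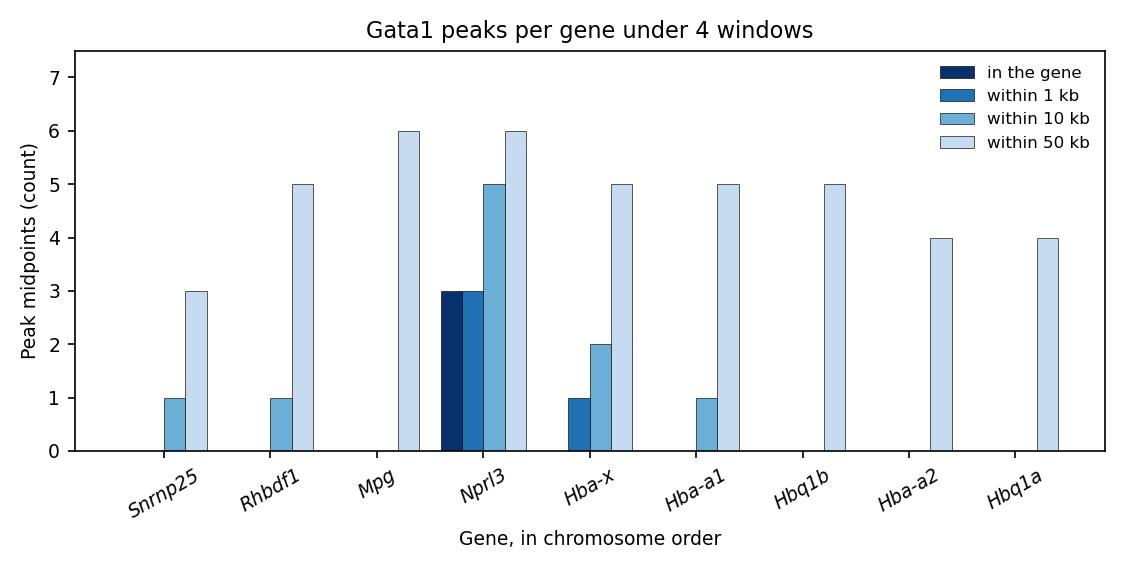
Number of Gata1 peak midpoints (vertical axis, count) inside each of the 9 genes and within 1, 10 and 50 kb of it, with the genes in chromosome order. Nprl3 is the only gene with peaks inside it (3), and Hba-x joins it within 1 kb, whereas within 50 kb the genes have 3 to 6 each.

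As a whole the region held 20.3 peaks per Mb (95% exact Poisson interval 7.45 to 44.2, counting error only). The density was 2.88 over chromosome 11 (2.58 to 3.20) and 1.70 over the autosomes (1.65 to 1.75). Most of it came from 1 stretch: the 30.8 kb from the peak beside HS-31 to the Hba-x start held 5 of the 6 peaks. These 5 spanned 30.6 kb from first to last midpoint, whereas 5 neighbouring peaks spanned a median of 1296 kb over the autosomes and the X. Of 4050 such runs of 5, 8 (0.198%), itself included, were no longer than this one, and overlapping runs counted once left 6 separate places. The run size of 5 and the length compared were both set by this group after it was seen, so this share is a description only. The others lay at Zfpm1, encoding the Gata1 cofactor FOG-1, at Hk1, at Btg2 and at 2 stretches with several genes. Of these stretches, 1 held Plcb3 and neighbours such as Ppp1r14b and Fkbp2, and the other held Tbc1d24, Ntn3, Tedc2 and Ccnf. Among autosomal windows of 295 kb taken every 10 kb, 0.321% held at least 6 peaks and 71.1% held none. The 5 intervals of this run do not overlap, the closest midpoints being 3.81 kb apart. Because all peaks were 400 bp wide and have no height, the extent and strength of each site could not be examined.

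**Figure D3:**
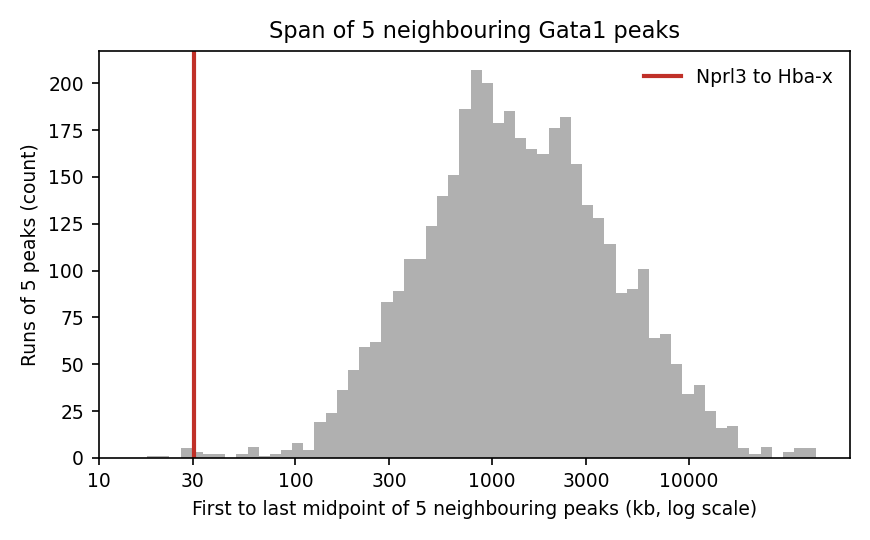
Distance from the first to the last midpoint of every run of 5 neighbouring Gata1 peaks (horizontal axis, kb on a log scale) against the number of runs (vertical axis). The red line marks the run from Nprl3 to Hba-x at 30.6 kb, far to the left of the median of 1296 kb. The run size of 5 was set by this group after it was seen.

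Beyond the Hba-x peak on one side and the Il9r peak on the other, the next peaks were far off. The next peak above the Hba-x peak was 290 kb away, inside Stk10 and 166 kb beyond the end of the region. Of 4110 gaps between neighbouring peaks, 38.5% were at least as long. Below the Il9r peak the next was 2002 kb away, and 7.37% of gaps were at least as long. The median gap was 171 kb. The Il9r peak was the one nearest to an edge of the region, 94.9 kb inside it.

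At the sequence level, the Hba-x promoter held 2 GATA matches and both lay under the peak. The first was 234 to 229 bases before the start and 54.5 bases from the peak midpoint, and the second was 108 to 103 bases before the start and 71.5 bases from it. The peak midpoint therefore fell between the 2 matches. The core letters GATA alone also occurred nearer to it, 163 to 160 bases before the start and 15.5 bases from the midpoint, in a word that is not among the 4 counted as a match. CACCC, the core of the box that Klf1 is known to bind, lay 198 to 194 and 95 to 91 bases before the start, the second between the GATA match nearer to the start and the start itself. TATAA lay 28 to 24 bases before the start. Of 21006 different protein-coding promoters, 5.36% held at least 2 GATA matches in these 250 bases, as did 13.8% of the 261 with a peak midpoint in their window.

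The adult promoters held a GATA match without a called peak, as did most protein-coding promoters with a match. In Hba-a1 it was 183 to 178 bases before the start, and in Hba-a2 it was 186 to 181 bases before the start. The next lines set the match of each gene, in capitals, beside its neighbouring bases, to show that the adult pair share theirs and that the match nearer to the start of Hba-x lies in different flanks. They are chr11:32276480-32276509, chr11:32283477-32283506 and chr11:32296294-32296323, all on the plus strand.
Hba-x: tgttgctggctcTGATAAcaggctccaccc
Hba-a1: tgtccgggcaacTGATAAggattccctgca
Hba-a2: tgtccgggcaacTGATAAggattccctgca

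Among the 8 genes with a promoter in the table, 4 held a GATA match in the 250 bases before the start: Hba-x with 2, and Hba-a1, Hba-a2 and Snrnp25 with 1 each. The share over all protein-coding promoters was 23.4%, and over the 261 with a peak midpoint it was 47.9%. The promoters of Hba-x, Hba-a1 and Hba-a2 each held GATA, CACCC and TATAA together, as did 2.68% of all. Hba-a1 and Hba-a2 share 1 promoter sequence, and those of Hbq1b and Hbq1a are near copies. The 8 promoters are therefore not 8 separate observations in any of these counts. CACCC was found in 4 of the 8 (54.4% of all promoters) and TATAA in 5 (20.2%). CCAAT was found in 6 (35.3%), among them Hba-a1 and Hba-a2 but not Hba-x. The E-box letters CANNTG, the kind of site bound by Tal1, were found in 7 (62.8%), and in Hba-a1 and Hba-a2 they overlapped the GATA match. All motifs were searched on both strands. A match is a run of letters and not a site shown to be bound, and 3 of the 4 genes with a GATA match had no peak there. Of all 4924 protein-coding promoters with a GATA match, 125 had a peak midpoint in their window. A match without a peak was therefore the usual case and not particular to these genes.

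At the Il9r peak the midpoint was 20 bases upstream of the annotated start, and a GATA match, AGATAA on the opposite strand, lay 30 to 25 bases before the start and 7.5 bases from the midpoint. A second match, 223 to 218 bases before the start, lay at the edge of the peak, with its centre just outside. Over the 125 promoters that held both, the median distance from a peak midpoint to the nearest match was 14.5 bases. For this distance only matches in the 250 bases before the start were counted. At Hba-x that distance was longer than the median, 54.5 bases. The Il9r peak covered 220 of the 250 bases shown. The sequences under the 4 peaks beside HS-31, HS-26, HS-12 and HS-8 were not analysed here, so whether they hold GATA matches was not examined. The same holds for the parts of the Hba-x and Il9r peaks outside the promoter windows.

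**Figure D4:**
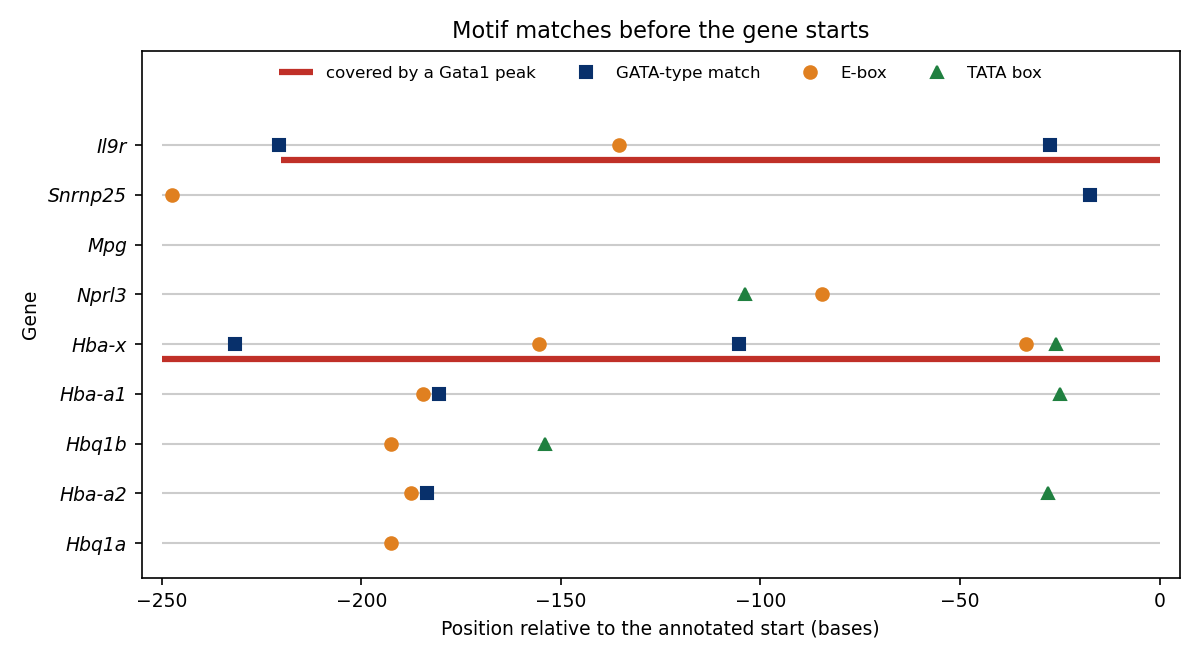
Matches in the 250 bases before the annotated start (horizontal axis, bases relative to the start) of Il9r and of the 8 genes with a promoter in the RefSeq table. Squares are GATA matches and circles E-boxes, and a red line marks the bases under a Gata1 peak. Triangles, labelled TATA box, are the letters TATAA on either strand, and those of Nprl3 and Hbq1b are on the opposite strand. The Hba-x and Il9r promoters lie under a peak, whereas Hba-a1, Hba-a2 and Snrnp25 have a GATA match and no peak.

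The beta-globin cluster on chromosome 7 was taken by its globin genes alone, with the same flank of 100 kb. It also had 6 peaks, a density of 24.9 per Mb (95% exact Poisson interval 9.15 to 54.3). Set in that way by its 5 globin genes without the flanking genes, the alpha-globin region held the same number over 224 kb, a density of 26.8 per Mb (9.82 to 58.2), and the intervals overlap almost entirely. In both clusters 0 peaks had their midpoint within the span of the globin genes, 24.3 kb for the alpha type and 40.7 kb for the beta type. At the alpha-globin genes all 6 peaks were on 1 side, the side of Nprl3. At the beta-globin genes 5 were above the span and 1 below it. No beta-type gene had a peak within 1 kb, whereas Hba-x did; with 1 library this difference was not tested. Hbb-bt and Hbb-y were the 2 of 5 matched beta-type genes with a peak within 10 kb.

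Of 16 genes for regulators that act on alpha-globin transcription, 11 had a peak within 10 kb, against the 16.6% of all protein-coding genes. Within 1 kb 9 had one (11.3% of all), and inside the gene 7 did (9.34%). The list was chosen with earlier results of these data known. In symbol order the first 4 were Ctcf, encoding the insulator protein, Daxx, encoding the histone chaperone partner of Atrx, Gata1 itself and Klf1, encoding the red cell factor that binds CACCC boxes. Atrx, whose human counterpart is mutated in a syndrome with alpha-thalassaemia, had none within 50 kb, and neither had Bach1, Lmo2 and Tfcp2. Of 3 other globin genes matched (Mb, Ngb and Cygb), 0 had a peak within 10 kb.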

How the data were processed

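Gata1 ChIP-seq of sorted cells was deposited by the authors as a list of peak positions with no score. Per the submitters' processing notes, Bowtie2 2.0.6 and MACS2 2.0.10 were used with mm10. The sources used here do not give their settings, the threshold or the use of the control. Every interval is 400 bp wide, and peak positions were converted to 1-based coordinates. Depth is unknown.

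Peaks were assigned by midpoint with Python 3.11.15, numpy 2.4.6, pandas 2.3.3 and scipy 1.17.1, and gene positions and promoter sequences came from RefSeq tables of GRCm38.p6. Gene entries below 3 Mb on autosomes and the X were left out. Counting was tested on simulated data. Comparisons are counts beside the same count over all genes, promoters or windows. No test was run, since there is 1 library. Named were the 9 genes, other coding genes in the region, every peak there, and at most 4 genes from each further list, the first by symbol among those with a peak; other genes named were chosen after their values were seen. The genes and lists were chosen with earlier results of these data known. Alternatives were other flanks, windows, overlap rules, enhancer limits and motif letters.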

Additional observations from a re-analysis of the deposited data

How the results depend on the processing

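The count of peaks in the region (6) was 5 with no flank and 6 with flanks of 50 and 200 kb or with any overlap. The number of the 9 genes with a peak, 5 within 10 kb, was 5 with any overlap but moved to 2 within 1 kb, 9 within 50 kb and 1 inside the gene only, which follows from the width of the window. It was 2 with each peak given to its nearest gene alone, which counts no peak for more than 1 gene. Of 5 named enhancers, 4 had a peak within 1 kb or 2 kb of the nominal place and 2 within 0.5 kb. The density of 20.3 peaks per Mb moved to 52.4 over the span of the 9 genes and to 163 from the peak beside HS-31 to the Hba-x start. Both hold 5 of the 6 peaks, without the one at Il9r, over a shorter length, and the last stretch begins at a peak, so that its ends raise its density. With the region set by the globin genes alone, a setting chosen after seeing the data, the density was 26.8. The number of promoters with a GATA match (4) was 3 with GATAA, 6 with GATA alone and 4 in the whole 300-base window, a setting also chosen after the data were seen. A stricter threshold could not be tried without scores. Since depth is unknown, the lack of a peak means only that none was called. No paired analysis was possible because there is 1 ChIP library.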
